A study of Mus musculus with 12 samples.

Results

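The phagocyte NADPH oxidase was followed through 5 of its subunit genes, Cybb, Cyba, Ncf1, Ncf4 and Rac2. They were found by name among the 19549 gene features of the count tables, each as a feature of its own, and all 5 passed the filter on low counts that left 10421 features for testing. The oxidase moves electrons from NADPH across a membrane to oxygen and so makes superoxide, which phagocytes use to kill ingested microbes. Its catalytic core is a membrane pair, the flavocytochrome chain NOX2 (Cybb) and its partner p22phox (Cyba). In a resting macrophage the cytosolic subunits, among them the organizer p47phox (Ncf1) and the adaptor p40phox (Ncf4), are held apart from the core, and they join it together with a Rac GTPase (Rac2) once the cell is triggered. Loss of a core or cytosolic subunit is known to cause chronic granulomatous disease, and interferon gamma is known as a priming signal for the oxidase.

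The cells were macrophages grown from the bone marrow of naïve female FVB mice, kept for 4 h either with IFNG (interferon gamma) at 200 units/mL, or with IL4 (interleukin 4) at 40 ng/mL. About 10% of each cell population was lysed for total mRNA. The lysate of the rest was spun through a 5 to 50% sucrose gradient, and messages carrying more than 3 ribosomes were pooled as polysome-associated mRNA. This gave 4 groups of 3 SmartSeq2 libraries, namely IFNG polysome, IL4 polysome, IFNG total and IL4 total. All groups share strain, sex and differentiation. No unpolarized cells are among the samples, so IL4 is the base of each difference between the cytokines. Where the fractions are compared, total mRNA is the base. Whether the replicates are separate mice or cultures is not stated in the labels, and the p-values therefore cover library-to-library spread that may be technical.

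Total counts ran from 2563955 to 8789480 in polysome libraries and from 10443200 to 22014162 in total mRNA libraries. Levels are given as CPM, counts scaled to a common library size, without correction for transcript length, so levels are compared between libraries and not between genes. Of 9 macrophage markers all 9 passed the filter, with a summed level of 10416 to 16312 CPM in IFNG polysome, 7825 to 8626 CPM in IL4 polysome, 12415 to 24340 CPM in IFNG total and 7966 to 13890 CPM in IL4 total libraries. The feature Lars2, a mitochondrial leucyl-tRNA synthetase gene, took 1.78 to 29.3% of the counts of IFNG polysome libraries and 5.15 to 18.1% of IL4 polysome libraries, against 0.341 to 2.00% in total mRNA libraries.

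Promoter windows of 250 bases before and 50 after the annotated start were at hand for 3 of the subunit genes, Cybb, Cyba and Ncf1, and are shown here. They come from RefSeq on GRCm38.p6, the assembly that mm10 stands for, all on the minus strand and read 5′ to 3′. The windows lie at chrX:9469275-9469574 for Cybb, chr8:122432891-122433190 for Cyba and chr5:134229576-134229875 for Ncf1. The Cybb window lies wholly inside the annotated span of its gene, 9435252 to 9487766. The Cyba and Ncf1 windows reach past the ends of theirs, at 122432940 and 134229628. Capitals mark matches, on either strand, to a GAS element (TTCNNNGAA, an element known from IFNG-induced genes), an ISRE-type element (GAAA, any 2 bases, GAAA, the interferon-response type) or a PU.1-type element (GAGGAA).
Cybb: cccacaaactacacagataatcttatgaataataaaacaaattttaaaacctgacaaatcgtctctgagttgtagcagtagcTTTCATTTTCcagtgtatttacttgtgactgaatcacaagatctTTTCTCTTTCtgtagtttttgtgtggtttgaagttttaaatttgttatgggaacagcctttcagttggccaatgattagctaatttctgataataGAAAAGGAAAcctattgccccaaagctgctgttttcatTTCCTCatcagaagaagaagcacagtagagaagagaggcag
Cyba: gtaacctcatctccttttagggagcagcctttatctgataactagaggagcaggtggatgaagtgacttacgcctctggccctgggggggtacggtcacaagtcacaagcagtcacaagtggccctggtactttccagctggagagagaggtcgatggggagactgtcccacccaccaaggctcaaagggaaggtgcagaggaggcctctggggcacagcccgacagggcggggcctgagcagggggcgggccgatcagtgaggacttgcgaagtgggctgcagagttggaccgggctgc
Ncf1: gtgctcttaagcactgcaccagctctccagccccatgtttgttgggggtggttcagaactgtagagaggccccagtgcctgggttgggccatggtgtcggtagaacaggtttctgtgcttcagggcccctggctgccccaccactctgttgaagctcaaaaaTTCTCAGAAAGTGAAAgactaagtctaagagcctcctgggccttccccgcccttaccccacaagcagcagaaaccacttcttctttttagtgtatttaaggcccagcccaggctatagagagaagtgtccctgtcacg
The Cybb window held 3 ISRE-type matches, whose first bases lay at -168, -124 and -29 relative to the start, and 1 PU.1-type match at 10. The Ncf1 window held 1 GAS match at -88 and 1 ISRE-type match at -82, which overlap. The Cyba window held 0 matches to these 3 elements. Across 32544 windows of the same length, 8.33% held a GAS match, 3.45% an ISRE-type match and 28.1% a PU.1-type match. An AP-1 element (TGANTCA) stood once in the Cybb window, at -139, and in 7.79% of all windows. An NF-kB-type element (GGG, any 5 bases, CC) matched in all 3 windows shown and in 51.0% of all windows. These matches describe letters and not bound sites, and their part in the difference between IFNG and IL4 was not tested. No windows were at hand for Ncf4 and Rac2.

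Cybb, the gene of the catalytic chain, lies on chromosome X between 9435252 and 9487766. In total mRNA it stood at 393, 728 and 1394 CPM in the IFNG libraries of replicates 1, 2 and 3, against 117, 106 and 93.7 CPM in the IL4 libraries. The lowest IFNG library was above the highest IL4 library, and the IFNG libraries differed among themselves far more than the IL4 libraries did. Means were 839 ± 509 CPM with IFNG and 106 ± 11.8 CPM with IL4 (SD, n = 3 each). The level was 7.93-fold higher with IFNG (95% interval 3.67 to 17.1; log2 fold change 2.99, SE 0.54; edgeR quasi-likelihood test, Benjamini-Hochberg adjusted p = 0.000473). Of the 10421 features, 277 had a larger log2 fold change. In bulk samples like these, fewer cells that express a gene and less RNA per cell cannot be told apart.

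On polysomes Cybb stood at 1379, 1118 and 1380.0 CPM in the IFNG libraries, against 312, 187 and 66.6 CPM in the IL4 libraries. Here the IFNG libraries lay close together and the IL4 libraries were spread, with replicate 3 lowest, and the groups again did not overlap. Cybb averaged 1292 ± 151 CPM with IFNG and 188 ± 123 CPM with IL4 (SD, n = 3 each), a 6.85-fold higher level with IFNG (95% interval 3.19 to 14.7; log2 fold change 2.78, SE 0.53; edgeR adjusted p = 0.00098). Leaving out 1 library at a time, the log2 fold change stayed between 2.37 and 3.27 in total mRNA and between 2.37 and 3.36 on polysomes, with adjusted p of at most 0.00465 and 0.00828. The smallest values came without IFNG total replicate 3 and without IL4 polysome replicate 3, and the largest polysome value came without IL4 polysome replicate 1.

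Cybb was the 1 of 5 subunit genes called higher with IFNG in each fraction, and 0 of 5 were called lower. Over all features, 7.08% were called higher and 3.93% lower in total mRNA, and 7.54% and 6.58% on polysomes. Groups with IFNG wholly above IL4 were found for 13.4% of all features in total mRNA and 15.2% on polysomes, and among the subunits for Cybb alone. The median log2 fold change of the 5 genes was 0.53 in total mRNA and -0.21 on polysomes, beside 0.04 and -0.06 over all features.

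Neutrophils carry the same oxidase, and their markers were set beside the Cybb result. Of 12 neutrophil markers 4 passed the filter. Their list summed to 34.0 to 41.7 CPM in IFNG polysome, 16.3 to 23.4 CPM in IL4 polysome, 48.1 to 59.2 CPM in IFNG total and 13.2 to 57.1 CPM in IL4 total libraries. Ly6g, Elane, Prtn3 and Mpo had 4, 9, 12 and 15 counts over the 3 IFNG total libraries. Over the 3 IL4 total libraries they had 0, 0, 2 and 4 counts. In the same order of groups, Csf3r had 1179 and 1237 counts, S100a8 333 and 118, S100a9 214 and 1, and Camp 79 and 18. Ngp had 23 and 0, Ltf 6 and 2, Cxcr2 1 and 0, and Retnlg 0 and 12. Cybb had 28608 and 4833 counts. S100a9, a calprotectin subunit, was the 1 marker called higher with IFNG in total mRNA, at 6.10 ± 8.10 CPM against 0.0211 ± 0.0365 CPM (SD, n = 3 each; edgeR adjusted p = 0.000426), and 0 were called on polysomes. The S100a9 SD was above its mean in both groups, and its IL4 total libraries held 1 count.

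Of 6 dendritic cell markers 3 passed the filter. Xcr1 and Clec9a were called higher with IFNG in both fractions, Itgax was called lower in both, and Flt3 had 0 counts in every library. The list summed to 36.1 to 82.0 CPM in IFNG polysome, 41.6 to 255 CPM in IL4 polysome, 18.6 to 33.2 CPM in IFNG total and 42.5 to 152 CPM in IL4 total libraries. Of the 9 macrophage markers, 1 was called higher with IFNG in total mRNA (Fcgr1) and 3 on polysomes (Fcgr1, Adgre1 and Mertk). The part of these marker levels in the Cybb result was not tested.

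**Figure D1:**
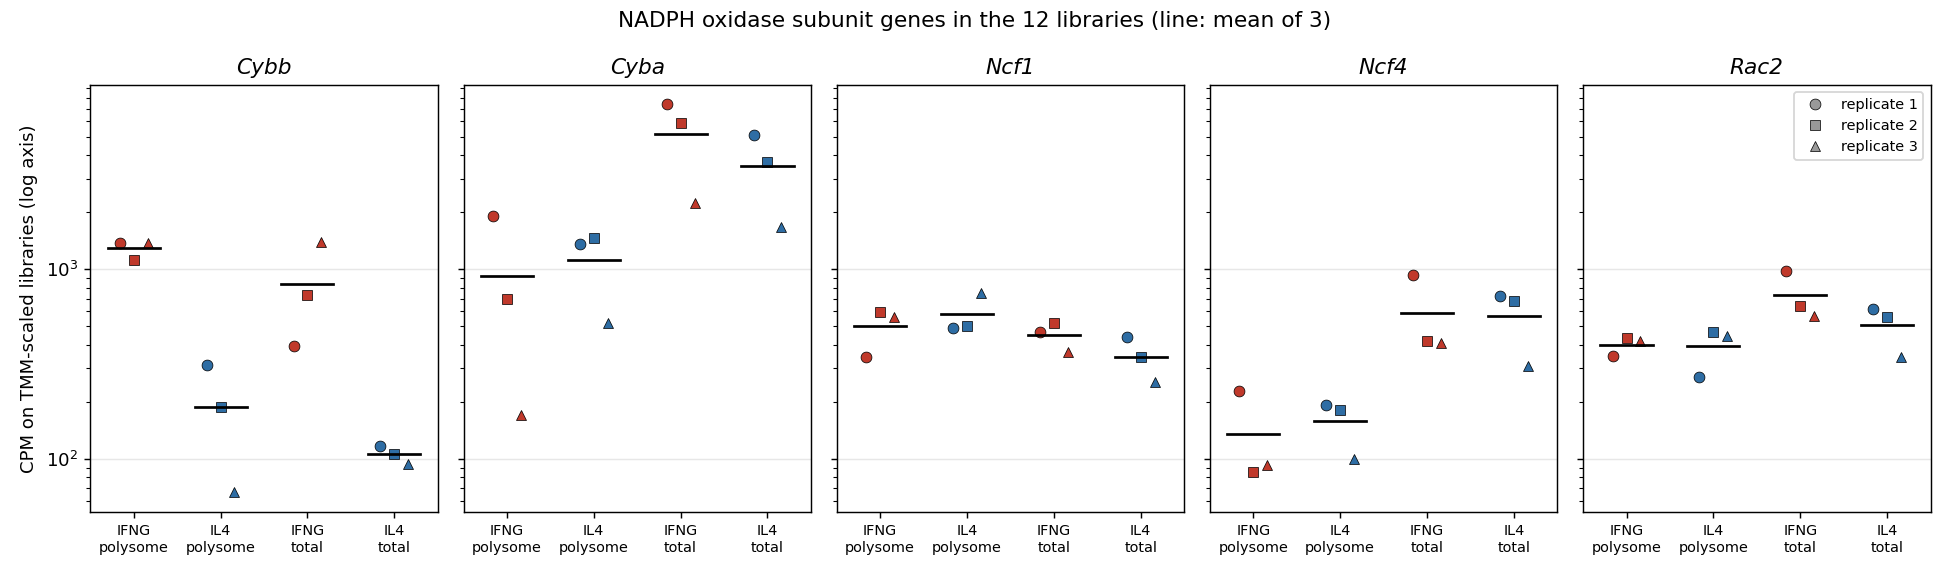
CPM of each subunit gene (log axis, counts scaled to a common library size) in each of the 12 libraries, in the groups IFNG polysome, IL4 polysome, IFNG total and IL4 total. Symbols mark the replicate number and lines the mean of 3. Cybb in IFNG libraries lies at 393 to 1394 CPM, above every IL4 library, while the IFNG and IL4 libraries of the other subunits overlap in each fraction.

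Cyba codes for p22phox, which stabilizes the catalytic chain in the membrane, and lies on chromosome 8 between 122424771 and 122432940. Its total mRNA level was 7388, 5896 and 2227 CPM in the IFNG libraries and 5107, 3680.3 and 1668 CPM in the IL4 libraries. Replicate 3 was lowest in both groups, the ranges overlapped, and the IFNG library was the higher one in 3 of 3 replicate numbers. The log2 fold change was 0.57 (95% interval -0.76 to 1.90; edgeR adjusted p = 0.739). On polysomes the level was 1906, 694 and 169.9 CPM with IFNG and 1350.5, 1462 and 520.04 CPM with IL4. Replicate 3 was again lowest in both, and the IFNG library was higher in 1 of 3 numbers (log2 fold change -0.27, 95% interval -1.59 to 1.06; edgeR adjusted p = 0.840).

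Ncf1 codes for p47phox, which is phosphorylated on activation and carries the cytosolic subunits to the core. The gene lies on chromosome 5 between 134220053 and 134229628. In total mRNA it stood at 467, 521 and 364 CPM with IFNG and at 439, 343 and 256 CPM with IL4. Each IFNG library was above the IL4 library of its number, although the ranges overlapped (log2 fold change 0.38, 95% interval -0.45 to 1.21; edgeR adjusted p = 0.708). On polysomes the values were 346, 598 and 558 CPM with IFNG and 492, 499.7 and 752 CPM with IL4, and the IFNG library was higher in 1 of 3 numbers. The log2 fold change there was -0.21 (95% interval -1.04 to 0.61; edgeR adjusted p = 0.785).

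Ncf4 codes for p40phox, which binds a phosphoinositide of the phagosome membrane, and lies on chromosome 15 between 78244164 and 78262582. Its total mRNA level was 933, 417 and 408 CPM with IFNG and 718.5, 679 and 310.25 CPM with IL4. The ranges overlapped (log2 fold change 0.04, 95% interval -0.97 to 1.05; edgeR adjusted p = 0.980). On polysomes it stood at 229, 84.9 and 92.3 CPM with IFNG and at 193, 181 and 99.5 CPM with IL4. The lowest libraries were IFNG replicates 2 and 3, and the ranges overlapped (log2 fold change -0.22, 95% interval -1.23 to 0.79; edgeR adjusted p = 0.826).

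Rac2 codes for the Rac GTPase of blood cells that takes part in the active complex, and lies on chromosome 15 between 78559169 and 78572783. Reads shared with its close relatives could be split by the counting, which is not described in the sources used here. In total mRNA it stood at 979, 640.5 and 569 CPM with IFNG and at 614, 560.1 and 344 CPM with IL4. Each IFNG library was above the IL4 library of its number, with overlapping ranges (log2 fold change 0.53, 95% interval -0.31 to 1.37; edgeR adjusted p = 0.544). On polysomes it stood at 349, 431 and 419 CPM with IFNG and at 269.6, 469 and 443 CPM with IL4. The IL4 range covered the IFNG range there (log2 fold change 0.02, 95% interval -0.82 to 0.86; edgeR adjusted p = 0.981).

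The intervals show what these libraries could resolve for the 4 subunits that were not called. Their upper ends in total mRNA correspond to 3.73-fold for Cyba, 2.31-fold for Ncf1, 2.07-fold for Ncf4 and 2.58-fold for Rac2. The lower end for Cybb, 3.67-fold, was above 3 of these upper ends and below that of Cyba.

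**Figure D2:**
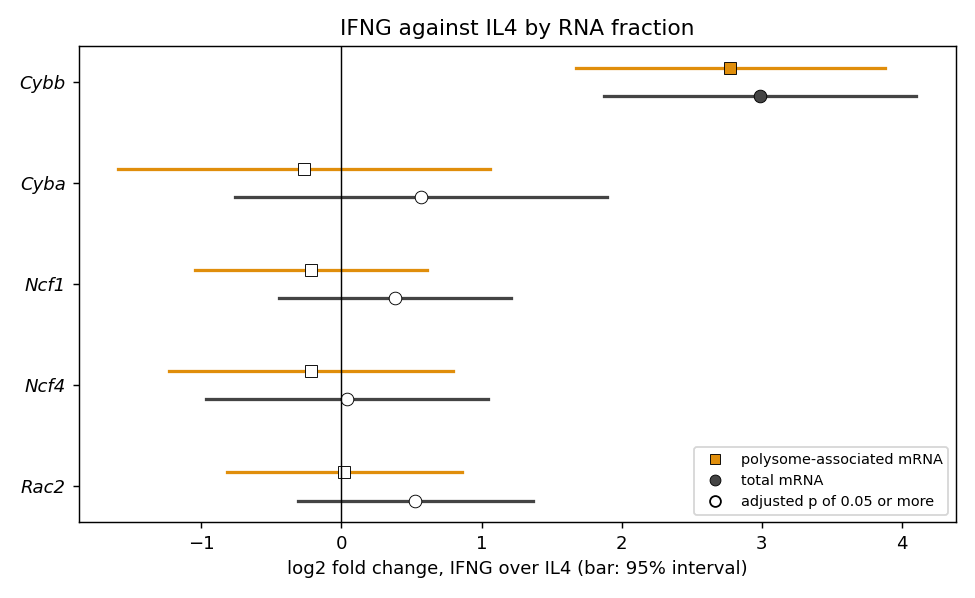
Log2 fold change of IFNG over IL4 for each subunit gene in polysome-associated mRNA (squares) and total mRNA (circles), with 95% intervals as bars. Filled symbols have an adjusted p under 0.05. Cybb sits at 2.78 and 2.99, and the intervals of the other subunits include 0 in both fractions.

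The balance between the catalytic chain and its partner was read as the log2 ratio of Cybb to Cyba counts, which is not scaled for transcript length and so is compared between libraries only. On polysomes it averaged 1.08 ± 1.78 with IFNG and -2.68 ± 0.49 with IL4, and in total mRNA -2.64 ± 1.81 with IFNG and -4.90 ± 0.67 with IL4 (SD, n = 3 each). The IFNG polysome ratios were -0.47, 0.69 and 3.02 in replicates 1, 2 and 3, and the highest IL4 polysome ratio was -2.11. In total mRNA the groups overlapped, with IFNG replicate 1 at -4.23 and IL4 replicate 3 at -4.15. Cybb supplied 32.8, 38.2 and 52.7% of the counts of the 5 genes in IFNG polysome libraries, against 11.9, 6.67 and 3.54% in IL4 polysome libraries. In total mRNA the shares were 3.87, 8.88 and 28.1% with IFNG and 1.68, 1.98 and 3.51% with IL4. The share was higher with IFNG in every replicate number of both fractions.

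The next comparison asked how each message was divided between polysomes and total mRNA. CPM are relative within a library, so this shows a gene against the other messages of the same fraction. Ratios by replicate pair the fractions by replicate number, which the labels do not state to mark a shared preparation. Averaged over the polarizations, 2 of 5 subunit genes were called lower on polysomes, Cyba and Ncf4, and 0 were called higher. Over all features, 25.7% were called lower and 22.6% higher. The median log2 fold change of the 5 genes was -0.62, beside 0.04 over all features.

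Cyba averaged 923 ± 891 CPM on polysomes and 5170.0 ± 2656 CPM in total mRNA with IFNG, and 1111 ± 515 CPM and 3485 ± 1728 CPM with IL4 (SD, n = 3 each). Averaged over both it was 4.19-fold lower on polysomes (95% interval 2.13 to 8.23; log2 fold change -2.07, SE 0.47; edgeR adjusted p = 0.00118). For replicates 1, 2 and 3, the log2 ratio of polysome to total CPM was -1.95, -3.09 and -3.71 with IFNG and -1.92, -1.33 and -1.68 with IL4. All 6 ratios were negative, and those with IFNG were the more spread. Within IFNG the log2 fold change was -2.48 (SE 0.68; edgeR adjusted p = 0.0105), a call lost without IFNG total replicate 1 (-2.12, 0.0558) or IFNG polysome replicate 2 (-2.31, 0.0572). Without IFNG polysome replicate 1 it was -3.58. Within IL4 it was -1.65 (SE 0.66; edgeR adjusted p = 0.0611), and it was called there with the replicate number as a block (-1.62, edgeR adjusted p = 0.00541).

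Ncf4 averaged 135 ± 81.0 CPM on polysomes and 586 ± 301 CPM in total mRNA with IFNG, and 158 ± 50.8 CPM and 569 ± 225 CPM with IL4 (SD, n = 3 each). It was 3.95-fold lower on polysomes over both (95% interval 2.36 to 6.59; log2 fold change -1.98, SE 0.36; edgeR adjusted p = 0.000161). The log2 ratios were -2.03, -2.30 and -2.14 with IFNG and -1.90, -1.91 and -1.64 with IL4, a narrow band in all 6 pairs of libraries. The fall was called within IFNG (log2 fold change -2.11, and -2.73 without IFNG polysome replicate 1; edgeR adjusted p = 0.0052) and within IL4 (-1.85; 0.0106), where it was lost without IL4 polysome replicate 3 (-1.61; 0.0556). Within IFNG, 17.0% of all features were called lower, and within IL4 15.9%. In all, 868 features had a lower log2 fold change than Cyba and 984 a lower one than Ncf4.

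For Cybb the log2 ratio of polysome to total CPM was 1.81, 0.62 and -0.01 with IFNG and 1.41, 0.81 and -0.49 with IL4. Replicate 1 was highest and replicate 3 lowest under both cytokines. The averaged log2 fold change was 0.73 (95% interval -0.00 to 1.46; edgeR adjusted p = 0.0927). It was called without IFNG total replicate 3 (1.01; 0.0196) and without IL4 polysome replicate 3 (0.93; 0.0295).

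For Ncf1 and Rac2 replicate 1 was lowest and replicate 3 highest under both cytokines. The Ncf1 ratios were -0.43, 0.20 and 0.62 with IFNG and 0.16, 0.54 and 1.56 with IL4 (averaged log2 fold change 0.45, 95% interval -0.14 to 1.04; edgeR adjusted p = 0.194). The Rac2 ratios were -1.49, -0.57 and -0.44 with IFNG and -1.19, -0.26 and 0.36 with IL4. The averaged value of Rac2 was -0.62 (95% interval -1.21 to -0.02; edgeR adjusted p = 0.0801), and it was called with DESeq2 (-0.62, adjusted p = 0.0490) and with the most abundant features left out (-0.73; 0.0462). Those features were Lars2 and Ftl1, whose share of a library reached 29.3 and 8.16%. Lars2 held 1.78, 12.8 and 29.3% of the counts in IFNG polysome replicates 1, 2 and 3 and 5.15, 11.98 and 18.1% in IL4 polysome replicates, and the part of this in the ratios was not tested. Without these features Cyba was at -2.21 (edgeR adjusted p = 0.0005) and still called.

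Whether IFNG and IL4 differed in this division was tested as an interaction. Of the 5 genes 0 were called, as were 0.00% of all features with edgeR, and DESeq2 called 1 lower and 0 higher. With edgeR, 176 of the 10421 features had an unadjusted p under 0.05, a smaller share than that threshold would pass by chance alone. The interaction log2 values were -0.21 for Cybb (95% interval -1.67 to 1.25), -0.83 for Cyba (-2.71 to 1.04) and -0.60 for Ncf1 (-1.77 to 0.58). Leaving out IFNG polysome replicate 1 gave -1.93 for Cyba, and leaving out replicate 3 of that group gave -0.25. The values were -0.26 for Ncf4 (-1.69 to 1.17) and -0.51 for Rac2 (-1.69 to 0.68). These intervals are wide with 3 libraries a group, and differences of either sign within them are compatible with the data.

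**Figure D3:**
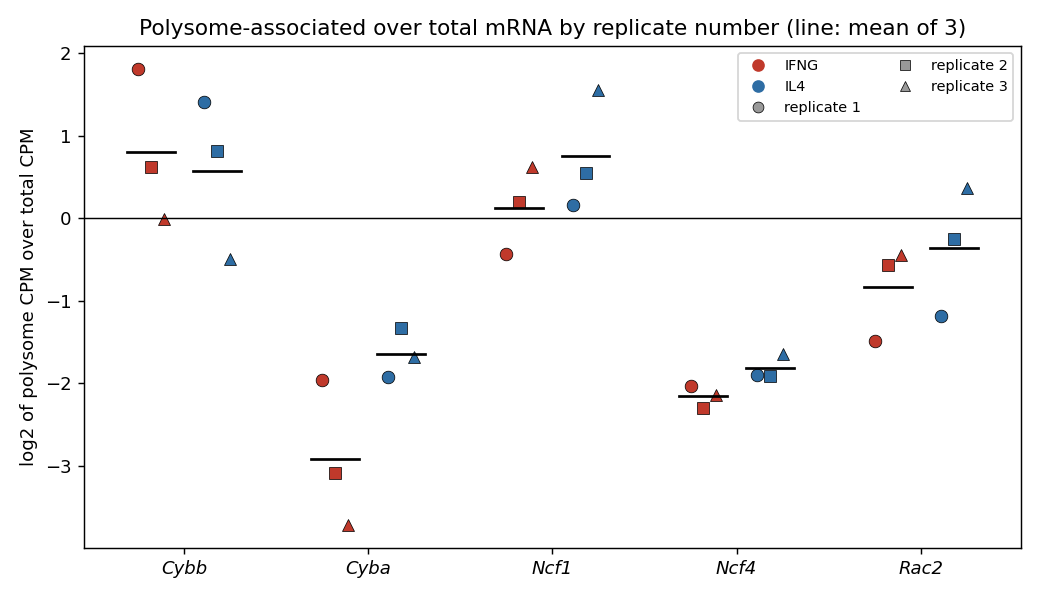
Log2 ratio of polysome CPM to total CPM for each subunit gene, for IFNG and IL4, by replicate number; lines are means of 3. All ratios of Cyba and Ncf4 are below 0, between -3.71 and -1.33, and those of Cybb, Ncf1 and Rac2 cross or come near 0.

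Genes that work with the oxidase were described by list. The counts called between IFNG and IL4 in each list stand beside the shares over all features. Those shares were 7.08% higher and 3.93% lower in total mRNA, and 7.54% and 6.58% on polysomes. Of 24 partners in assembly, activation and folding, 23 were found and tested, and 1 was called higher with IFNG in total mRNA and 1 higher and 1 lower on polysomes. The median log2 fold change was 0.21 in total mRNA and -0.02 on polysomes. Prex1, an exchange factor that loads Rac with GTP, averaged 305 ± 134 CPM with IFNG and 86.9 ± 24.8 CPM with IL4 in total mRNA (SD, n = 3 each; log2 fold change 1.81, edgeR adjusted p = 0.00847). That call was lost without IFNG total replicate 2 (0.0911) or IL4 total replicate 3 (0.0567). On polysomes Prex1 averaged 631 ± 227 CPM with IFNG and 215 ± 39.3 CPM with IL4 (1.55; 0.0216), lost without any 1 of 3 libraries (adjusted p up to 0.094) and with limma on the authors' log2 values (0.0546). Tiam1, another Rac exchange factor, was lower with IFNG on polysomes, at 26.6 ± 10.5 against 74.5 ± 13.1 CPM (-1.50; 0.0392), a call lost without any 1 of 7 libraries (up to 0.119). Other settings that lost it were the filter at 10 CPM (0.0519), limma on the authors' log2 values (0.0730) and features over 5% of a library left out (0.0597).

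On polysomes relative to total mRNA, averaged over the polarizations, 7 of the 23 tested partners were called higher and 4 lower. Over all features, 22.6% were called higher and 25.7% lower. The list's median log2 fold change in this comparison was 0.49, beside 0.04 over all features. Of the oxidase relatives of the NOX and DUOX family, 9 were listed and 6 had 0 counts in every library. Nox1 was counted only jointly with the neighbouring Cstf2, and Noxo1 averaged 1.06 CPM over all libraries. Of the 2 that were tested 0 were called between IFNG and IL4 in either fraction.

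Transcription factors described for Cybb and its partner genes had 12 of 14 members tested, and 3 were called higher with IFNG in each fraction and 0 lower. The median log2 fold change was 0.79 in total mRNA and 0.20 on polysomes. Irf1, an interferon-induced factor, averaged 396 ± 152 CPM with IFNG and 21.5 ± 9.58 CPM with IL4 in total mRNA (log2 fold change 4.20; edgeR adjusted p = 1.52e-05). Its IFNG polysome libraries averaged 249.9 ± 111 CPM and its IL4 polysome libraries 16.5 ± 8.99 CPM, a log2 fold change of 3.93 (SD, n = 3 each; edgeR adjusted p = 4.07e-05).

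Irf8, a factor of the myeloid line that acts with PU.1, averaged 597 ± 209 CPM with IFNG and 183 ± 74.3 CPM with IL4 in total mRNA (log2 fold change 1.71; edgeR adjusted p = 0.0152). The call was lost without IFNG total replicate 2 (0.127), IL4 total replicate 2 (0.0741) or IL4 total replicate 3 (0.0944), and on polysomes the value was 1.29 (0.0615). Nfkb1, an NF-kB subunit, was called on polysomes, at 195 ± 87.7 CPM with IFNG and 78.5 ± 21.6 CPM with IL4 (1.32; 0.0411), and the call was lost without any 1 of 7 libraries (up to 0.197), with limma-voom (0.0551) and with limma on the authors' log2 values (0.0939).

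All 11 genes of NADPH supply were tested, and 0 were called higher with IFNG. Lower were 1 in total mRNA and 2 on polysomes. Idh1, the cytosolic isocitrate dehydrogenase that makes NADPH, averaged 5.50 ± 1.97 CPM with IFNG and 46.9 ± 2.68 CPM with IL4 in total mRNA (log2 fold change -3.08; edgeR adjusted p = 5.18e-05), and 7.79 ± 3.57 and 73.4 ± 18.7 CPM on polysomes (-3.25; 4.03e-05). Tkt, a transketolase of the pentose phosphate pathway, averaged 109.9 ± 14.8 CPM with IFNG and 272 ± 9.37 CPM with IL4 on polysomes (-1.30; 0.0372). The Tkt call was lost without any 1 of 7 libraries (up to 0.131), with limma on the authors' log2 values (0.0537), with features over 5% left out (0.0622) and with thinned libraries (0.0501). The median of the list was 0.14 in total mRNA and -0.28 on polysomes.

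Of 8 genes that handle superoxide, peroxide and reactive nitrogen, 7 were tested, and in each fraction 3 were called higher with IFNG and 1 lower. The median log2 fold change was 1.09 in total mRNA and 0.65 on polysomes. Nos2, the inducible nitric oxide synthase, averaged 103 ± 37.0 CPM with IFNG and 0.242 ± 0.419 CPM with IL4 in total mRNA (log2 fold change 8.75; edgeR adjusted p = 4.77e-07). All its IL4 total counts came from replicate 1. Without that library the log2 value was 12.86, which rests on an IL4 group without counts and is not a measured fold. Its IFNG polysome libraries averaged 176 ± 51.9 CPM and the IL4 polysome libraries held 0 counts, so the level was at least 751-fold higher, against a floor of 3 counts over the group. Sod2, the mitochondrial superoxide dismutase, averaged 1265 ± 371 and 136 ± 53.0 CPM in total mRNA (log2 fold change 3.21; edgeR adjusted p = 0.000538) and rose by 2.54 on polysomes (0.00375). On polysomes Sod2 averaged 472 ± 419 and 80.8 ± 40.1 CPM, and without IFNG polysome replicate 1 its log2 fold change was 1.503 and still called.

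Prdx1, a peroxide-reducing peroxiredoxin, averaged 5521 ± 1897 CPM with IFNG and 1720.4 ± 537 CPM with IL4 in total mRNA (log2 fold change 1.68; edgeR adjusted p = 0.0166). It was lost without IFNG total replicate 1 (0.0837), IL4 total replicate 1 (0.0549) or IL4 total replicate 3 (0.0896), and on polysomes (1.36; 0.0469) without any 1 of 7 libraries (up to 0.170). That polysome call was also lost with DESeq2 size factors (0.0502), without a filter (0.0539), with limma-voom (0.0529) and with limma on the authors' log2 values (0.0954). Gpx1, a glutathione peroxidase, was lower with IFNG, at 1086 ± 276 against 3717 ± 969 CPM in total mRNA (-1.77; 0.00591). Its polysome value of -1.59 (0.0126) was lost without any 1 of 2 libraries (up to 0.0633).

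Of the 12 receptors that trigger the oxidase, all 12 were tested, and 4 were called higher with IFNG in total mRNA and 3 on polysomes, with 0 lower. The median log2 fold change was 0.50 in total mRNA and 0.92 on polysomes. The Fc receptor genes Fcgr4 and Fcgr1, whose products bind antibody-coated particles, averaged 488 ± 85.2 and 429.9 ± 53.6 CPM with IFNG and 3.21 ± 0.826 and 20.8 ± 5.996 CPM with IL4 in total mRNA. Their log2 fold changes were 7.24 and 4.37 there (edgeR adjusted p = 2.9e-08 and 2.7e-07) and 7.06 and 4.49 on polysomes (1.69e-07 and 4.01e-07). Leaving out IL4 polysome replicate 1 gave 6.25 for Fcgr4 on polysomes, and leaving out replicate 3 of that group gave 7.76. Fpr2, a formyl peptide receptor, averaged 310.4 ± 91.0 and 7.44 ± 7.18 CPM in total mRNA (5.38, and 6.50 without IL4 total replicate 1; 8.03e-06) and 815 ± 303 and 24.2 ± 13.9 CPM on polysomes (5.06; 1.86e-05). Tlr2, a receptor for bacterial lipoproteins, averaged 177 ± 41.6 and 55.6 ± 31.0 CPM in total mRNA (1.67; 0.0385), a call lost without any 1 of 4 libraries (up to 0.177), with the filter at 10 CPM (0.0529) and with limma on the authors' log2 values (0.0882).

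Genes with a course like that of each subunit were found by Pearson correlation of log2 CPM over the 12 libraries among 6314 features with at least 10 CPM. The libraries fall into 4 groups and share their scaling, so these values describe the course over groups. For Cybb the nearest were Rasgef1b, Tgfbr1 and Cflar (r = 0.98, 0.98 and 0.97). For Cyba they were Acaa1b, Tbcb and Edf1 (0.99, 0.99 and 0.97), and for Ncf4 Psmc4, Akr1a1 and Tubb2a (0.98 each). Ncf1 was followed by Limk1, Cdt1 and Tfe3 (0.95, 0.94 and 0.93), and Rac2 by Bcl7b, Tmed3 and Ece2 (0.94, 0.93 and 0.92). None of these nearest genes was another subunit. Between subunits, r was 0.91 for Cyba and Ncf4, 0.65 for Ncf4 and Rac2 and 0.60 for Cyba and Rac2. The other pairs ran from -0.54 (Ncf1 and Ncf4) to 0.09 (Ncf1 and Rac2).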

How the data were processed

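Each file held whole-number read counts per gene symbol, deposited by the authors without normalization. A second column held the authors' TMM-normalized log2 values, per the file headers. The submitters' processing notes name HISAT2, HISAT, limma and mm10, with no versions. How reads were counted, with which strand setting and annotation, is not given in the sources used here, and overlapping or antisense genes may share reads.

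The 12 libraries were tested with edgeR 4.0.16 under R 4.3.3, using the counts, filterByExpr, TMM scaling, and 1 robust quasi-likelihood model of 4 groups without covariates. Adjusted p-values are Benjamini-Hochberg values over all 10421 features tested, with a threshold of 0.05, and called means under it. CPM are counts on TMM-scaled libraries, and 3 counts equal 0.136 to 1.17 CPM of unscaled totals. Intervals are 95%. Floors cover counting error only.

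The members and lists were chosen with earlier results of these data known. Named genes were the subunits, up to 4 called members of each list by fold change in total mRNA, or up to 2 by level where 0 were called, and the 3 features most like each subunit, leaving out joined and predicted genes. Some members of the lists are counted but not reported by name here. Marker genes were named after their values were seen. Whether a replicate number pairs the IFNG and IL4 libraries of a fraction is not settled by the data. Deviations of same-numbered libraries from their group means correlated at 0.15 to 0.74 in the 6 pairs of both fractions. In the 12 pairs of different numbers they correlated at -0.70 to 0.40, so the ranges overlapped. IFNG total replicate 2 correlated at 0.40 with IL4 total replicate 1 and at 0.15 with IL4 total replicate 2. Between the fractions of 1 polarization, same-numbered libraries correlated at -0.07 to 0.43 in 6 pairs. Libraries of different numbers correlated there at -0.48 to 0.18 in 12 pairs. Whether a number ties the fractions is not settled either. Alternatives were limma 3.58.1 (voom, and on the authors' log2 values), DESeq2 1.42.0, its size factors, other filters and thinning to 2563955 counts. Others left out features over 5% of a library, used a block by replicate number, or left out each library in turn. A block by polarization and replicate number was run only for polysomes against total mRNA and for the interaction. It ties the 2 fractions of 1 number, though the labels do not state that a number marks 1 preparation. It cannot estimate IFNG against IL4 within a fraction. For those differences a fit on the libraries of that fraction alone was run in its place. The procedure was tested on simulated data.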

Additional observations from a re-analysis of the deposited data

How the results depend on the processing

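The calls of Cybb in both fractions, and of Cyba and Ncf4 on polysomes averaged over the polarizations, were kept under all 22 alternatives run for each. For Cybb these did not include the block by polarization and number. Of 660 alternative values of the subunit genes, 620 kept direction and side of the threshold, 16 passed it newly, 3 lost it and 21 changed sign. The Ncf4 difference in total mRNA turned to -0.000975 with DESeq2, -0.000964 with DESeq2 size factors, -0.12 with the filter at 10 CPM and -0.11 with thinned libraries. The Cybb interaction turned to 0.22 with limma-voom, 0.23 on the authors' log2 values and 0.21 with a replicate block for each polarization and number. None of these values was called. The subunits called lower on polysomes within IL4 numbered 2 (1 as reported) with DESeq2, DESeq2 size factors, no filter and the filter at 10 CPM. They also numbered 2 with thinned libraries, features over 5% left out, the replicate block and the block by polarization and number. The added gene was Cyba. Neither block changed any other call of a subunit where it was run. The block by polarization and number was not run for IFNG against IL4 in either fraction.

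With 1 library left out, the number of subunits lower within IL4 was 0 to 2, that lower within IFNG 1 to 2, and that higher on average 0 to 1. Ncf4 in total mRNA ran from -0.52 to 0.24. On polysomes Cyba ran from -1.36 to 0.27, Ncf1 from -0.36 to 0.014, Ncf4 from -0.83 to 0.037 and Rac2 from -0.19 to 0.17. The interaction of Cybb ran from -0.62 to 0.50 that of Ncf4 from -0.88 to 0.37, that of Cyba from -1.93 to -0.25, that of Ncf1 from -0.80 to -0.31 and that of Rac2 from -0.71 to -0.080. Over all features, the 410 lower in total mRNA became 237 to 481, the 786 higher and 686 lower on polysomes 496 to 1001 and 351 to 960, the 931 higher and 1769 lower within IFNG 297 to 1201 and 935 to 2014, and the 1375 higher and 1662 lower within IL4 515 to 1471 and 1004 to 2045. With features over 5% left out, 992 were higher and 1999 lower within IL4. Without a filter, the interaction called 1 higher and 4 lower. Of the alternative values of the named list genes, 621 kept direction and side of the threshold, 23 passed it newly and 60 lost it. Where a value moved, the cause was not tested. A planned scaling by transcript length was not run for want of exon lengths.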
